A study of Mus musculus with 14 samples.

Results

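The interleukin-1 family and the inflammasome were followed through the intervertebral discs (IVDs) of diabetic and control mice by 10 genes, Il1a, Il1b, Il33, Il18, Il1rn, Il1r1, Il1rap, Il1rl1, Nlrp3 and Casp1. They were chosen by symbol as the ligands, antagonist, receptors, sensor and protease of the pathway, and they are 10 of the 55487 genes of the gene count table. Of these 10 genes, 7 passed the filter on low counts, which asked for a CPM above 1 (counts scaled to the depth of the library) in at least 3 of the 14 libraries. Il1a, Il1b and Nlrp3 did not pass it.

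Each library was made from 5 IVDs pooled from 1 mouse. In the db/db model, 3 male mice homozygous for a mutation of the leptin receptor were compared with 3 heterozygous db/+ littermates, all 12 weeks old. In the STZ-HFD model, 4 male C57BL/6 mice, 12 weeks old at the start, were given a high-fat diet. After a lead-in of 4 to 6 weeks they received 1 injection of streptozotocin (STZ) at 100 mg/kg, a toxin of pancreatic beta cells. Their IVDs were collected 12 weeks later and compared with those of 4 control mice (Con+Veh, labelled wild type) on standard chow with the citrate vehicle alone. The labels give the high-fat diet as 80% of calories from fat and the methods as 60%, against 13% for the chow. The models differ in cohort, age and schedule, so each was compared with its own control, and STZ and diet cannot be told apart.

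Interleukin-1α and interleukin-1β bind the receptor IL-1R1, which signals only after recruiting the accessory protein IL-1RAcP, and the antagonist IL-1Ra occupies the same receptor without that recruitment. Interleukin-33 is held in the nucleus of barrier and stromal cells, is released on damage, and acts through its own receptor ST2 together with the same accessory protein. Interleukin-1β and interleukin-18 are made as inactive precursors that caspase-1 cuts once a sensor such as NLRP3 has assembled an inflammasome, so their activity is not read from RNA. In the IVD, interleukin-1 is known as a driver of matrix breakdown.

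Il33, the gene of interleukin-33, lies on chromosome 19 from 29925114 to 29960718 on the + strand of GRCm38, and has 5 annotated transcripts. The long form, Il33-202, starts at 29925114, with Il33-204 and Il33-205 close by at 29925115 and 29925132. Il33-201 starts at 29945790, in an intron of the long form. Il33-203 starts at 29951816 and had no estimate above 0 in any library. The transcript estimates of Il33 were split differently between libraries, as given below. For this reason the 250 bases before the starts of Il33-202 and Il33-201, as RefSeq places them, are shown. They come from RefSeq on GRCm38.p6, + strand, at chr19:29924863-29925112 and chr19:29945540-29945789, the last base of the first lying 2 bases before the annotated start of Il33-202, and neither window overlaps an exon. Capitals mark the letters TATAAA.
Il33-202 promoter: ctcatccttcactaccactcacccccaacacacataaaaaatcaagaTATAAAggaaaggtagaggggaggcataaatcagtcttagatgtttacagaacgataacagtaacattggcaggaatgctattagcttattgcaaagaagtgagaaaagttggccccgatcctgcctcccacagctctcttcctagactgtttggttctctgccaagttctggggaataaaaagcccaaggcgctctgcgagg
Il33-201 promoter: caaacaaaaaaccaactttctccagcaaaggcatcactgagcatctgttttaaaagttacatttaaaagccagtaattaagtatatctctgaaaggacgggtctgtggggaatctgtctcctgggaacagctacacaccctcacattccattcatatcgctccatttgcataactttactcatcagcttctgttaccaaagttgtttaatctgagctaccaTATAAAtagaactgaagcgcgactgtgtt
TATAAA stood at -29 to -24 from the start of Il33-201 and at -204 to -199 from that of Il33-202. Of 32851 promoters of this length, 12.4% held it. The letters TGANTCA and TTCNNNGAA, searched on both strands, were in neither window and were held by 6.75% and 7.02% of all promoters. A match describes the letters and is not a measured binding site.

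Libraries held 16076908 to 58943169 gene counts, so that 3 counts corresponded to 0.0509 to 0.187 CPM, a floor that covers counting error only. STZ-HFD replicate 1, the shallowest, stood apart. It had counts on 1106 of 1138 olfactory receptor genes, a family mainly expressed in the nose, against 178 to 319 in the other libraries, and its transcript estimates amounted to a median of 18.3% of the gene count against 28.4 to 32.9% elsewhere. Summed olfactory receptor counts were also high in Con+Veh replicates 3 and 4, at 1055 and 1208 CPM, against 1764 CPM in STZ-HFD replicate 1 and 25.0 to 279 CPM in the rest. Lepr, the gene mutated in db/db, had 309, 534 and 375 counts in db/db and 472, 374 and 391 in db/+, and a count over the whole gene does not read a point mutation. Summed markers of the annulus and of disc chondrocytes, such as Acan and Col2a1, reached 13387 to 40893 CPM in the db groups and 1271 to 5300 CPM in the other cohort. In pooled discs, fewer cells of a type and less RNA per cell cannot be told apart.

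Below, CPM is scaled by edgeR's TMM factors, a log2 fold change is that of limma's voomWithQualityWeights with its SE, and the p-value is adjusted by Benjamini-Hochberg over the 16915 genes tested. To be called, a gene needed an adjusted p under 0.05 together with a log2 fold change of 1 or more in either direction. The p-values measure the spread between these mice.

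In STZ-HFD discs, Il33 was lower than in Con+Veh discs. The 4 STZ-HFD libraries held 48, 20, 44 and 30 counts of Il33, or 1.97, 0.688, 1.37 and 0.892 CPM. Con+Veh libraries held 118, 247, 199 and 225 counts, or 3.21, 5.13, 9.35 and 12.2 CPM. Every STZ-HFD library lay below every Con+Veh library, and the highest values, in Con+Veh replicates 3 and 4, belonged to the pair with high olfactory receptor counts. The means were 1.23 ± 0.571 CPM (SD, n = 4) and 7.48 ± 4.07 CPM (SD, n = 4). This gave a log2 fold change of -3.03 ± 0.53 (SE), with an adjusted p of 0.00793 by limma, and it was the 40th lowest of 16915. The fold change is weighted by library, and Con+Veh replicates 3 and 4 carried weights of 3.05 and 1.81 against 0.275 and 0.462 for replicates 1 and 2.

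Of the 7 genes tested, Il33 was the only one called in STZ-HFD discs, where 2.61% of all genes were called. It was also the only one of the 7 whose groups did not overlap, beside 4.74% of all genes. edgeR's quasi-likelihood test gave Il33 -2.60 (adjusted p = 0.0454), and DESeq2 gave -2.58 (adjusted p = 4.80e-06). Over all genes tested, edgeR called 29 and DESeq2 277, where limma called 441. Without quality weights the value was -2.41 (adjusted p = 0.128), in a fit that called 19 genes. The call was lost without Con+Veh replicate 3 (-2.81, adjusted p = 0.0883 by limma), Con+Veh replicate 4 (-2.71, 0.0681), STZ-HFD replicate 3 (-3.22, 0.121) or STZ-HFD replicate 4 (-2.93, 0.0563). Those fits called 17, 18, 18 and 164 genes in the whole table, in that order. Without both Con+Veh replicates 3 and 4, chosen after their values were seen, the value was -1.94 with an adjusted p of 1.00. That fit called 2 genes in the whole table. The direction was lower in all 28 settings.

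In the db model, Il33 was not called. db/db libraries held 8.26, 4.31 and 7.92 CPM and db/+ libraries 4.14, 5.51 and 3.93 CPM. db/db replicate 2 lay among the controls, so the groups overlapped. Here the log2 fold change was 0.51 ± 0.33 (SE, adjusted p = 0.389 by limma). With the replicate number as a block it was 0.74 (adjusted p = 0.0363 by limma), under the minimum fold. The difference between the models was -3.54 ± 0.63 (SE), with an adjusted p of 0.0176 by limma, so Il33 was the only one of the 7 genes to pass that test, which 1.77% of all genes passed. This difference was called in 8 of 12 other settings and in 12 of 14 with 1 library left out. It was lost with edgeR (-3.19, adjusted p = 0.0989), without Con+Veh replicate 3 (-3.33, 0.109) and without STZ-HFD replicate 3 (-3.74, 0.0629), while DESeq2 gave an adjusted p of 0.000918. It was lost as well without quality weights (-2.96, adjusted p = 0.167 by limma) and without Con+Veh replicates 3 and 4 (-2.45, 0.624). Over all genes, the difference was called for 300 in the main fit and 252 with DESeq2. With edgeR it was called for 5 genes, without Con+Veh replicate 3 for 4 and without STZ-HFD replicate 3 for 27. The fit without quality weights called 3 genes, and that without Con+Veh replicates 3 and 4 called 0.

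**Figure D1:**
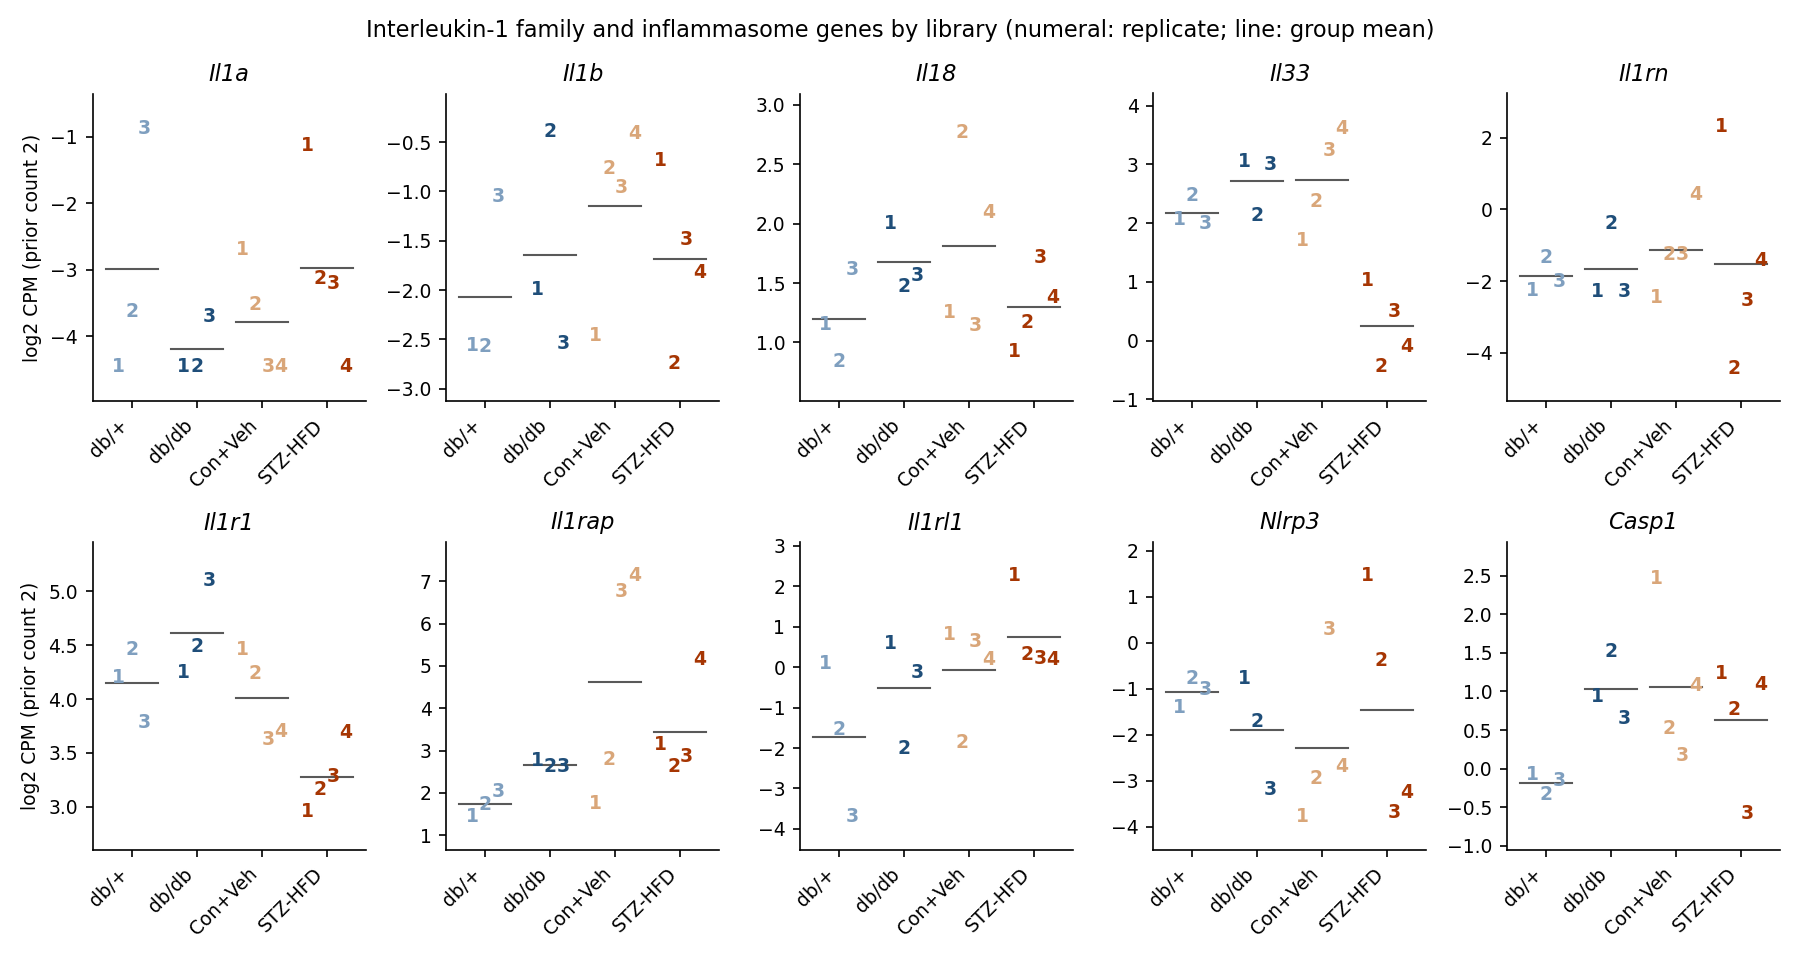
Levels of the 10 genes in each library, as log2 CPM with a prior count of 2, in 1 panel per gene, with numerals for the replicate and a line for the group mean. Il33 is the panel in which all 4 STZ-HFD libraries sit below all 4 Con+Veh libraries, and Il1rap the one in which Con+Veh replicates 3 and 4 stand far above the rest.

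The form of Il33 to which estimates were assigned differed between libraries. In the db libraries these estimates summed to 22.7 to 27.6% of the gene counts of Il33. The 2 main forms overlap, and how reads were allocated between them was not tested. Estimates for the inner-start form Il33-201 were 54, 20.0 and 0 in db/+ and 119, 49.9 and 121 in db/db. For Il33-202 they were 0, 52.0 and 63 in db/+ and 25.8, 28.4 and 0 in db/db. Single db libraries thus had estimates mainly on 1 form or the other. Il33-201 made up 42.6 ± 51.6% of the Il33 estimates in db/+ (SD, n = 3) and 81.0 ± 19.6% in db/db (SD, n = 3). The difference of 38.5 percentage points was within the spread, with p = 0.4 in a two-sided exact permutation test, whose smallest p for 3 against 3 is 0.1. In the other cohort Il33-201 had an estimate of 17.6 in Con+Veh replicate 4 and 0 in the other 3 controls and in all 4 STZ-HFD libraries. There Il33-202 had 10, 76, 44 and 27.8 in Con+Veh and 8, 6, 13 and 7 in STZ-HFD. The STZ-HFD estimates were under the minimum of 20 per library, so no share was tested. Summed per gene, these estimates gave Il33 a log2 fold change of -2.59 (adjusted p = 0.0331 by limma) in STZ-HFD discs, so the lower level was seen in both tables of the same reads.

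Markers of several cell types moved in the same comparison, some of cells that are known to hold interleukin-33 and some not. Over 6 fibroblast markers, 5 were below 0 in STZ-HFD discs with a median log2 fold change of -0.60, against -0.04 over all genes tested, and Dcn, the matrix proteoglycan decorin, was called lower by limma and DESeq2 and not by edgeR. Their summed level ranged from 432 to 681 CPM in STZ-HFD and from 625 to 1546 CPM in Con+Veh. Summed endothelial markers, another known source of interleukin-33, were at 216 to 485 CPM and 218 to 920 CPM, with a median of 0.07, and limma, edgeR and DESeq2 called none of these 7 markers, 2 of which had an unadjusted p under 0.05, as 17.9% of all genes did. Keratinocyte markers were low throughout, with sums of 5.40 to 20.1 CPM. Krt5 was at 0 in 10 of 14 libraries, while Krt10, Lor and Trp63 had counts in every library, with medians of 124, 8.5 and 256.5 counts. Markers of disc chondrocytes and the annulus moved further, with 7 of 8 below 0, a median of -1.14, and Acan, Col2a1, Sox9 and Comp called lower by limma, the first 3 of them by DESeq2 and none by edgeR. Their sums were 1271 to 2996 CPM in STZ-HFD and 2479 to 5300 CPM in Con+Veh. All 6 adipocyte markers were above 0 with a median of 0.50, and Plin4, a lipid droplet protein, was called higher by limma and DESeq2 and not by edgeR. The part of these cells in the Il33 difference was not tested.

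The genes with the pattern most like that of Il33 were ranked by Spearman correlation of log2 CPM over the 14 libraries, a description in which all genes share the libraries and their depth. Ackr3, a scavenging chemokine receptor, came first at 0.91. Dcn, Igfbp6, which encodes a binding protein of insulin-like growth factors, and Myoc, which encodes myocilin, were each at 0.88, as was Cyp20a1. In STZ-HFD discs Ackr3 (-1.07, adjusted p = 0.0216 by limma), Dcn (-1.65, 0.00458), Igfbp6 (-1.32, 0.00824) and Myoc (-1.73, 0.0130) fell, and Cyp20a1 was at -0.76 (0.0538). These genes were picked for likeness to Il33 in the same libraries, so their values are no separate evidence on its fall.

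Il18, the other ligand that passed the filter, was read in every library. It was at 2.17, 1.74 and 3.02 CPM in db/+ and at 3.97, 2.73 and 2.91 CPM in db/db. Con+Veh libraries were at 2.34, 6.75, 2.16 and 4.24 CPM and STZ-HFD libraries at 1.85, 2.20, 3.23 and 2.56 CPM. The groups overlapped in both models. By limma the log2 fold change was 0.50 ± 0.34 (SE, adjusted p = 0.415) in db/db and -0.21 ± 0.38 (SE, adjusted p = 0.824) in STZ-HFD discs. Il18 lies on chromosome 9 from 50554827 to 50581840, where Tex12 and Bco2 overlap it. These had 0 to 16 and 0 to 33 counts per library.

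The classical ligands were near the floor. Il1b had 6, 7 and 28 counts in db/+, 13, 50 and 8 in db/db, 5, 26, 10 and 13 in Con+Veh and 14, 3, 10 and 8 in STZ-HFD. Within each model the groups overlapped. The coding transcript of Il1b was not among the transcripts analysed, so the transcript table gives no second reading of it. Il1a had 0, 2 and 32 counts in db/+, 0, 0 and 2 in db/db, 4, 2, 0 and 0 in Con+Veh, and 10, 2, 2 and 0 in STZ-HFD. The highest Il1a counts were thus in single libraries, db/+ replicate 3 and STZ-HFD replicate 1. Neither gene was tested with the filter on, and with no filter the adjusted p-values of Il1a and Il1b in both models ran from 0.410 to 0.779 by limma. Il1a (chromosome 2, 129299610 to 129309972) and Il1b (chromosome 2, 129364570 to 129371139) both lie on the - strand. Each has a gene on the opposite strand, Gm14023 with 2 to 33 counts and Il1bos with 0 to 46 counts, and the strand setting of the counting is not given in the sources used here, so reads of such pairs cannot be told apart.

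Il1rn, which encodes the antagonist IL-1Ra, was low in all groups except for 1 library. It had 8, 20 and 13 counts in db/+, 10, 50 and 10 in db/db, and 5, 18, 8 and 24 in Con+Veh. STZ-HFD libraries had 121, 0, 4 and 11 counts. The 121 counts, or 4.97 CPM, were in STZ-HFD replicate 1, the library with olfactory receptor counts, where the transcript estimates of Il1rn summed to 0. Its log2 fold change was -1.44 ± 1.08 (SE, adjusted p = 0.528 by limma) in STZ-HFD discs, and the sign was the opposite with edgeR (1.33) and DESeq2 (1.37). It was 0.21 ± 0.96 (SE, adjusted p = 0.927 by limma) in db/db discs. No direction can be given for Il1rn.

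Among the receptors, Il1r1 was the most evenly read. It was at 18.4, 21.9 and 13.7 CPM in db/+ and 18.9, 22.4 and 34.2 CPM in db/db. Con+Veh libraries were at 22.0, 18.8, 12.3 and 12.98 CPM, and STZ-HFD libraries at 7.73, 8.91, 9.69 and 12.8 CPM. Of the STZ-HFD libraries only replicate 4 reached into the control range. The mean was 9.79 ± 2.19 CPM (SD, n = 4) in STZ-HFD and 16.5 ± 4.67 CPM (SD, n = 4) in Con+Veh, yet the weighted log2 fold change was -0.38 ± 0.26 (SE, adjusted p = 0.483 by limma), and the control libraries with the highest weights, replicates 3 and 4, held the lower values. In db/db it was 0.44 ± 0.25 (SE, adjusted p = 0.328). Il1r1 lies on chromosome 1 from 40225080 to 40317257, and a provisional gene model on its strand, Gm38070, had 31 to 481 counts.

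Il1rap, the accessory protein shared by the receptors for interleukin-1 and interleukin-33, had a split control group. In Con+Veh it was at 3.34, 6.90, 108 and 141 CPM, from 123, 332, 2289 and 2603 counts. STZ-HFD libraries were at 8.76, 6.09, 7.27 and 35.6 CPM. Replicates 3 and 4 of Con+Veh were far above all others, and the other controls lay within or below the STZ-HFD libraries. These were again the controls with high olfactory receptor counts, whose part in the Il1rap value was not tested. Only 6 of 7 transcripts of Il1rap were analysed, so its gene counts were not set against transcript estimates.

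The log2 fold change of Il1rap in STZ-HFD discs was -2.60 ± 0.71 (SE, adjusted p = 0.0538 by limma), just short of the call. It moved with single libraries. It was called without Con+Veh replicate 1 (-2.86, adjusted p = 0.0134) or 2 (-2.93, 0.0105), and it was -1.72 (0.611) without Con+Veh replicate 3 and -1.77 (0.402) without Con+Veh replicate 4. Without quality weights it was -1.002 (adjusted p = 0.742), and without Con+Veh replicates 3 and 4 together it was 1.40 (adjusted p = 1.00), the opposite sign. In the db model, db/db libraries were at 6.75, 6.10 and 6.08 CPM and db/+ libraries at 2.67, 3.29 and 4.03 CPM, with no overlap. The log2 fold change there was 0.93 ± 0.97 (SE, adjusted p = 0.616). Il1rap lies on chromosome 16 from 26581704 to 26730117, and its antisense neighbour Gm20319 had 0 to 8 counts.

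**Figure D2:**
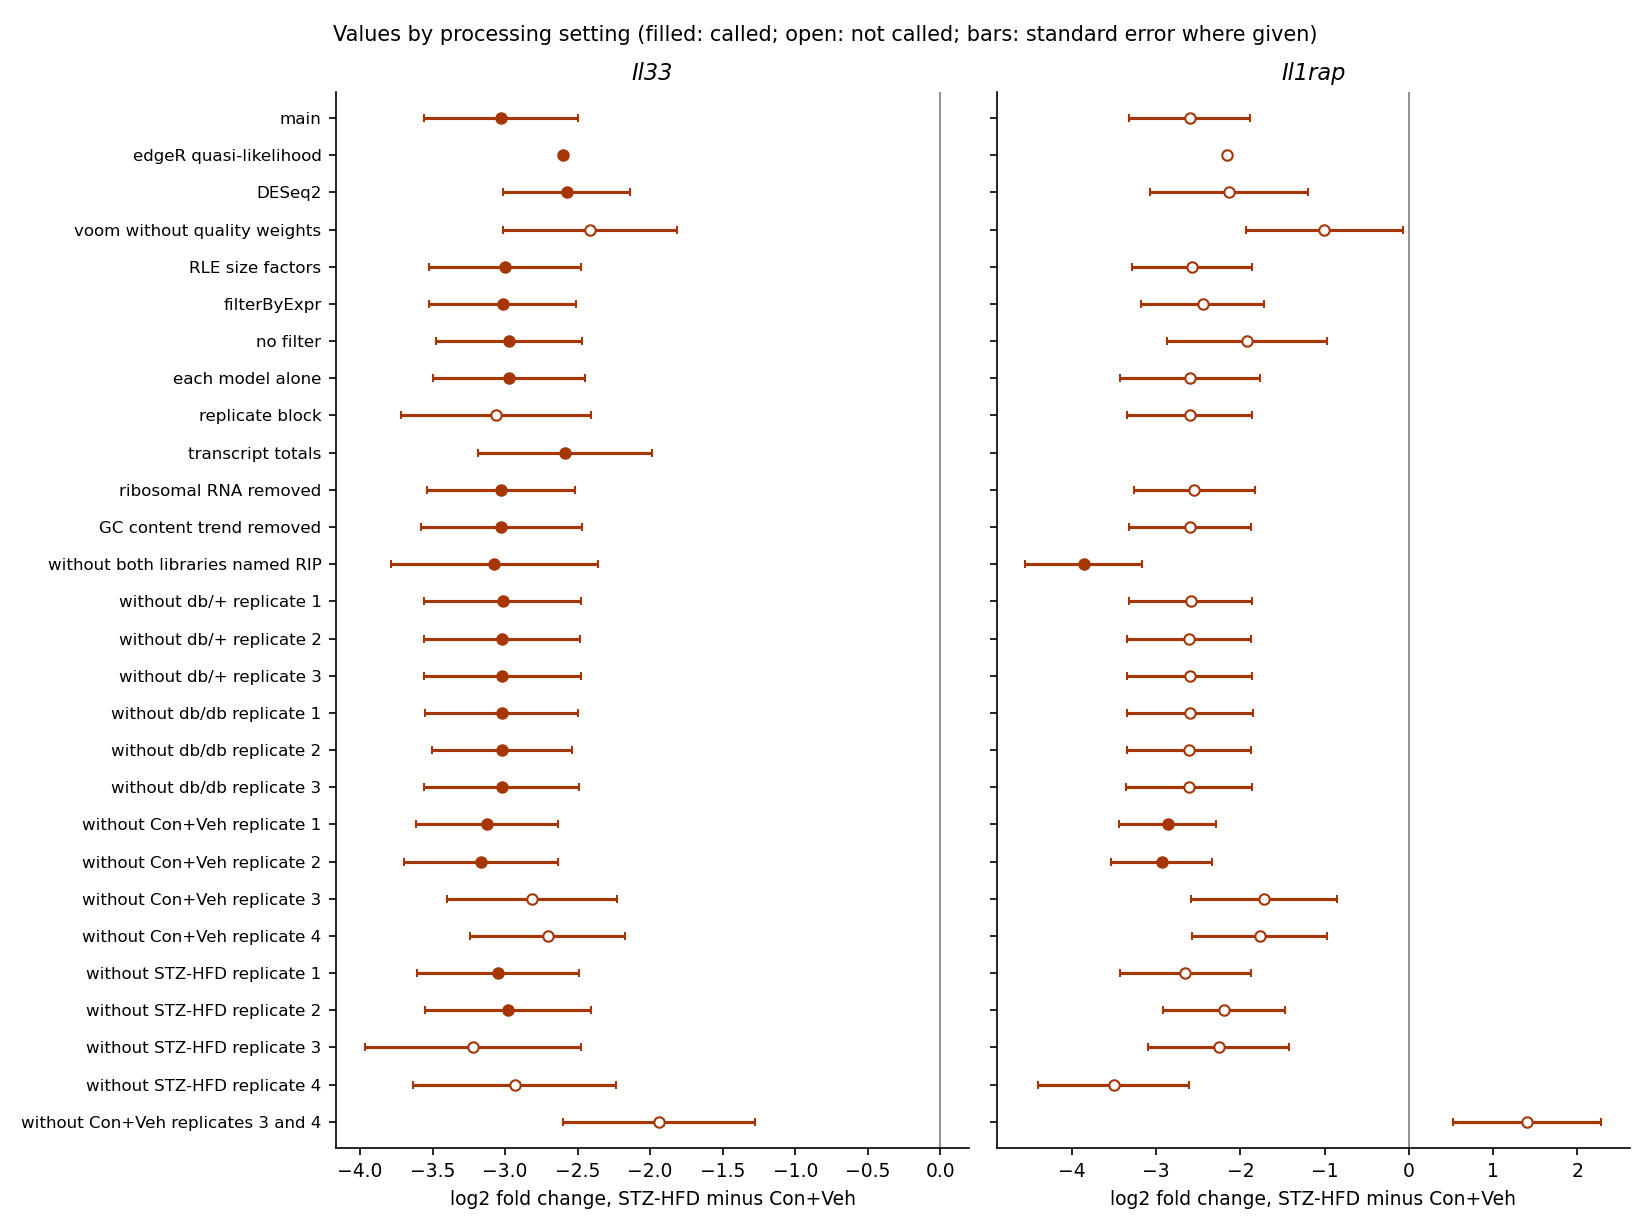
Log2 fold changes of Il33 and Il1rap in STZ-HFD against Con+Veh under each setting of the analysis, with filled points where the gene was called. Il33 stayed below 0 in every setting, between -3.22 and -1.94, whereas Il1rap ran from -3.86 to 1.40.

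Il1rl1, the gene of ST2, was read at a low level. It had 50, 17 and 2 counts in db/+, 92, 14 and 55 in db/db, 63, 11, 32 and 20 in Con+Veh and 117, 35, 36 and 37 in STZ-HFD. The groups overlapped in both models. Of the 117 counts in STZ-HFD replicate 1, the highest value at 4.81 CPM, only 4 were in the transcript estimates. Con+Veh replicate 1, with 63 counts, had an estimate of 1, so a small estimate was not particular to that library. For Il1rl1 the log2 fold change was 1.45 ± 1.07 (SE, adjusted p = 0.453 by limma) in db/db and 0.27 ± 0.75 (SE, adjusted p = 0.891) in STZ-HFD discs. The db/db value ran from 0.21 without db/+ replicate 3 to 2.57 without db/+ replicate 1. Il1rl1 lies on chromosome 1 from 40429570 to 40465415, close to Il1r1.

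Of the inflammasome genes, Casp1 was the nearest to a call in the db model. It had 44, 43 and 55 counts in db/+ and 119, 196 and 97 in db/db, or 0.903, 0.748 and 0.855 CPM against 1.87, 2.81 and 1.52 CPM. All 3 db/db libraries lay above all 3 db/+ libraries, and the transcript estimates did too, at 16, 13 and 17 against 35, 62 and 32. Casp1 had a log2 fold change of 1.28 ± 0.47 (SE), with an unadjusted p of 0.0141 and an adjusted p of 0.135 by limma, so Casp1 was not called. edgeR gave 1.31 (adjusted p = 0.446) and DESeq2 1.33 (adjusted p = 0.325). With the replicate number as a block it was 1.19 (adjusted p = 0.0243 by limma), and Casp1 was called. The labels do not say whether the numbers pair these mice. That block called 1484 genes in the db model, against 281 without it.

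Casp1 in the other cohort overlapped between groups. Con+Veh libraries were at 5.49, 1.39, 1.08 and 2.06 CPM and STZ-HFD libraries at 2.30, 1.65, 0.621 and 2.08 CPM. Its fitted log2 fold change was -0.23 ± 0.53 (SE, adjusted p = 0.862 by limma), and it was 0.38 without STZ-HFD replicate 3, so its direction rests on that library. Casp1 lies on chromosome 9 from 5298517 to 5307265, next to Casp4.

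Nlrp3 was too low to test. It had 16, 31 and 29 counts in db/+, 34, 18 and 4 in db/db, 1, 4, 25 and 2 in Con+Veh and 66, 21, 1 and 2 in STZ-HFD. Single libraries held most of its counts in the second cohort. In STZ-HFD replicate 1, with 66 counts, its transcript estimates summed to 0, and so they did in replicate 2, with 21 counts, and replicate 3, with 1. With no filter the log2 fold change was -1.06 ± 0.90 (SE, adjusted p = 0.685 by limma) in db/db and -1.39 ± 1.17 (SE, adjusted p = 0.471) in STZ-HFD discs. Nlrp3 lies on chromosome 11 from 59541568 to 59566956 and Il1rn on chromosome 2 from 24336853 to 24351494.

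**Figure D3:**
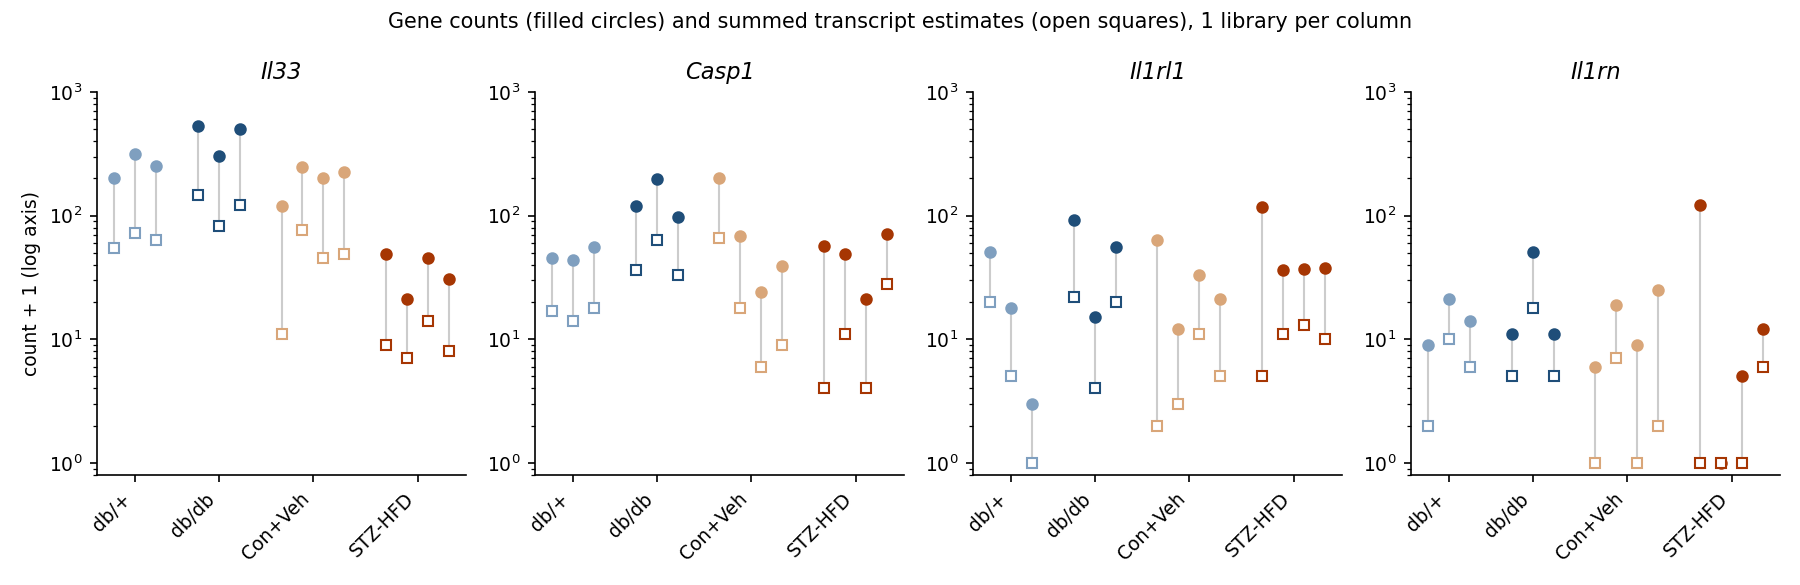
Gene counts (filled circles) and summed transcript estimates (open squares) of Il33, Casp1, Il1rl1 and Il1rn in each library, as count + 1 on a log axis. All annotated transcripts of these 4 genes were analysed, and in STZ-HFD replicate 1 the 117 counts of Il1rl1 have an estimate of 4 and the 121 counts of Il1rn an estimate of 0. In Con+Veh replicate 1 the 63 counts of Il1rl1 have an estimate of 1.

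None of the 7 tested genes was called in db/db discs by limma, edgeR or DESeq2, which called 281, 0 and 212 of all 16915 genes there, 1.66% by limma. With an unadjusted p under 0.05 there was 1 of 7, Casp1, beside 21.1% of all genes. All 7 log2 fold changes were above 0, from 0.21 for Il1rn to 1.45 for Il1rl1, where 47.3% of all genes were above 0. Il1rap and Casp1 did not overlap between db/db and db/+, which is 2 of 7, read beside 25.8% of all genes. In STZ-HFD discs 6 of 7 log2 fold changes were below 0, Il1rl1 being the exception, where 47.2% of all genes were above 0. With edgeR and DESeq2 it was 5 of 7, since Il1rn turned, and without Con+Veh replicates 3 and 4, when Il1rap turned, it was 4 of the 6 genes then tested. The difference between the models was below 0 for all 7 with limma and for 6 of 7 with edgeR and DESeq2, where Il1rn turned. Without Con+Veh replicates 3 and 4 it was below 0 for 5 of 6, with Il1rap at 0.47. Apart from Il33, none of the 7 passed the test of this difference in the main fit. Casp1 was at -1.52 (unadjusted p = 0.0463, adjusted p = 0.278 by limma) and Il1r1 at -0.82 (unadjusted p = 0.0368, adjusted p = 0.248).

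**Figure D4:**
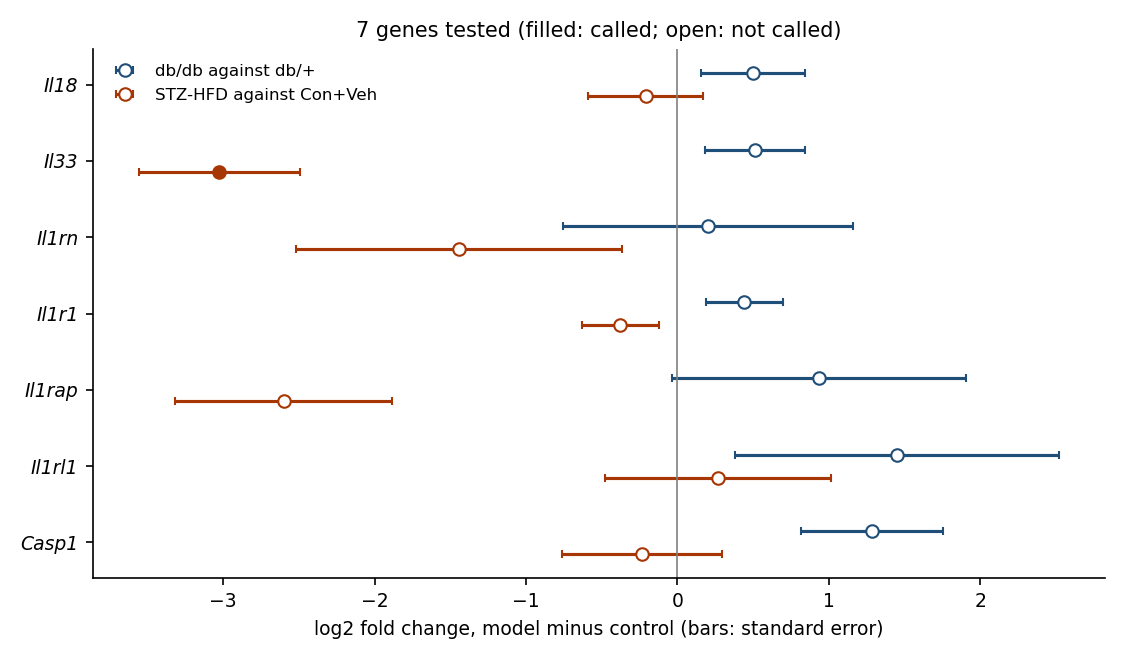
Log2 fold changes with their SE for the 7 tested genes in db/db against db/+ and STZ-HFD against Con+Veh, filled where called. Il33 at -3.03 in STZ-HFD is the only filled point, and all 7 points of the db model lie above 0.

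Per kilobase of exon, which allows genes to be compared, the order of the levels changed between cohorts. In db/+ discs Il1r1 was first at 2.83 CPM per kb, then Il18 at 2.24 and Il33 at 1.57, whose libraries overlapped. Casp1 at 0.558 and Il1rap at 0.293 came next, each without overlap with its neighbours. The remaining 5 genes, from Il1b at 0.119 to Il1rn at 0.0430 CPM per kb, overlapped with their neighbours. In the db/db libraries the first 5 kept this order, from Il1r1 at 3.96 to Il1rap at 0.556, and Il1a was last at 0.00531 CPM per kb.

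In Con+Veh discs Il1rap led at 5.70 CPM per kb, with a range of 0.294 to 12.4, ahead of Il18 at 3.76, Il1r1 at 2.60 and Il33 at 2.59, all overlapping. In STZ-HFD discs Il18 led at 2.39 CPM per kb, with Il1r1 at 1.54, Il1rap at 1.27, Casp1 at 1.11 and Il33 at 0.426. Il33 thus overlapped with Il18 and Il1r1 in Con+Veh discs, while in STZ-HFD discs its highest library, at 0.684, lay below their lowest, at 1.79 and 1.21 CPM per kb.

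**Figure D5:**
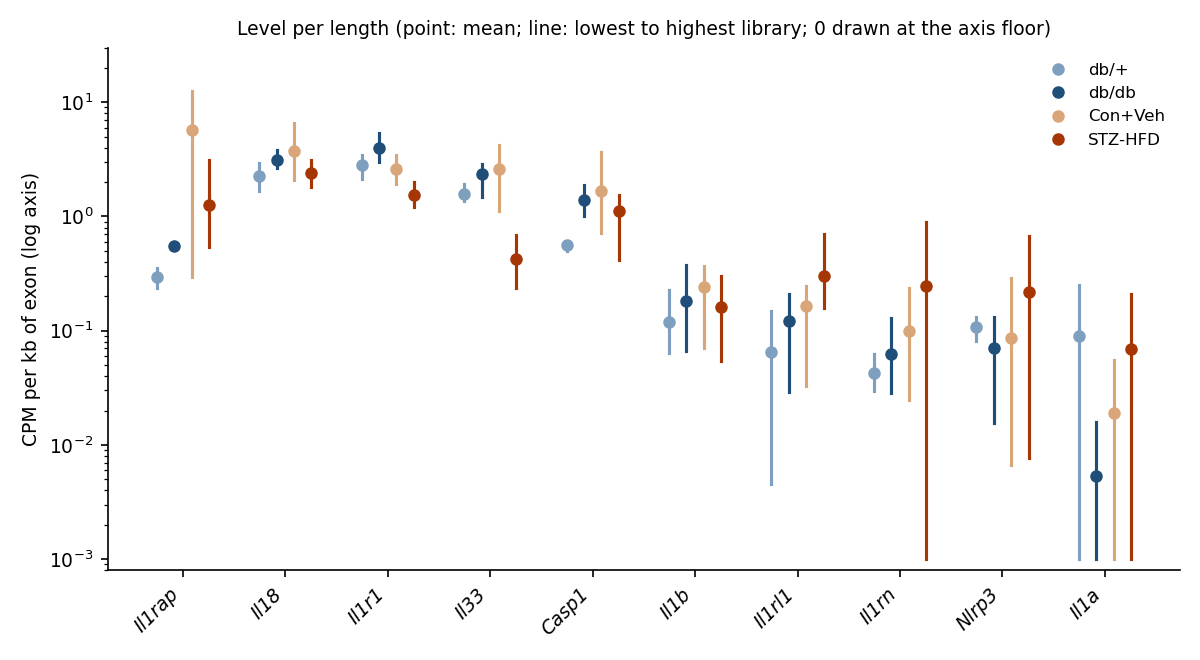
Levels of the 10 genes per kilobase of exon in each group, with the mean as a point and the lowest and highest library as a line, on a log axis where 0 is drawn at the floor. Il1r1, Il18 and Il33 lead in the db groups, and Il33 is at 0.426 CPM per kb in STZ-HFD.

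Around these genes, the rest of the pathway was read from lists. Of 5 other ligands of the family, which lie beside Il1rn on chromosome 2, none passed the filter. Of 8 other receptors and binding proteins, 4 were tested and none was called by limma or edgeR. Sigirr, an inhibitory receptor, was at 1.24 to 3.42 CPM in STZ-HFD and 0.190 to 0.564 CPM in Con+Veh, with a log2 fold change of 2.04 ± 0.57 (SE, adjusted p = 0.0596 by limma), and DESeq2 called it (2.35, adjusted p = 0.00348). Sigirr was above 0 in all 28 other settings and called in 3 of them, with 2.30 (adjusted p = 0.112) by edgeR and 1.34 (0.517) from transcript totals. Il18bp, the soluble decoy of interleukin-18, was at 3.05 to 4.45 CPM in db/db and 6.28 to 7.04 CPM in db/+, with a log2 fold change of -0.84 ± 0.24 (SE, adjusted p = 0.0757 by limma). Neither gene's groups overlapped. The same held for 4.74% of all genes in STZ-HFD discs, where Sigirr was read, and for 25.8% in db/db discs, where Il18bp was read.

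The 12 genes that carry the signal from the receptor, from adaptors to kinases, were all tested. None was called in db/db discs, where 6 were above 0 with a median of -0.03 and 2 had an unadjusted p under 0.05, and none in STZ-HFD discs, where 3 were above 0 with a median of -0.23 and 1 had such a p. edgeR and DESeq2 called none either. Irak3, an inhibitor of the kinases below the receptor, had the lowest p, with a log2 fold change of -0.93 ± 0.23 (SE, adjusted p = 0.0320 by limma) in STZ-HFD discs, under the minimum fold. Tollip, another inhibitor, was at -0.80 ± 0.30 (SE, adjusted p = 0.140) in db/db discs.

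Of 15 other sensors and adaptors of inflammasomes, 10 were tested, and limma, edgeR and DESeq2 called none in either model. Among db/db discs 7 were above 0 with a median of 0.33 and none had an unadjusted p under 0.05, and in STZ-HFD discs 3 were above 0 with a median of -0.18 and 1 had such a p. That was Nlrc4, a sensor of bacterial proteins, at -1.55 ± 0.69 (SE, adjusted p = 0.241). Nlrp12 was at -2.09 ± 1.02 (SE, adjusted p = 0.249) in db/db discs, and at -0.0987 (0.963) from transcript totals. The 6 genes of pyroptosis, the lytic death that follows caspase-1, were all tested and none was called by any of the 3 tools. In the db model 3 had an unadjusted p under 0.05, as 21.1% of all genes did, among them Panx1, a membrane channel, at -0.85 ± 0.36 (SE, adjusted p = 0.188) and Casp4, the sensor of intracellular lipopolysaccharide, at 0.88 ± 0.40 (SE, adjusted p = 0.223). In STZ-HFD discs none had.

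Genes known to be induced by interleukin-1 were read next. Of 22, 12 were tested, and limma and edgeR called none in either model. In db/db discs 6 were above 0 with a median of 0.16 and 2 had an unadjusted p under 0.05. In STZ-HFD discs 3 were above 0 with a median of -0.71 and 3 had such a p, and Lcn2 was called by DESeq2. Lcn2, which encodes the iron-binding lipocalin-2, was at 16.7 to 31.2 CPM in db/db and 5.13 to 16.7 CPM in db/+, against 1.64 to 4.64 CPM in STZ-HFD and 2.34 to 28.6 CPM in Con+Veh. Its log2 fold change was 1.49 ± 0.51 (SE, adjusted p = 0.115 by limma) in db/db and -1.98 ± 0.63 (SE, adjusted p = 0.0934) in STZ-HFD discs. The difference between the models was -3.47 ± 0.81 (SE), with an adjusted p of 0.0393 by limma, and it held in 4 of 11 other settings and in 3 of 14 with 1 library left out. Without Con+Veh replicate 4 it was -2.75 (adjusted p = 0.0953), and without Con+Veh replicates 3 and 4 -1.61 (0.734). The STZ-HFD value alone was then -1.27 (0.409) and -0.13 (1.00). Nfkbiz, an inducible regulator of NF-κB, was at -1.13 ± 0.36 (SE, adjusted p = 0.0905) in STZ-HFD discs and at 0.51 without Con+Veh replicates 3 and 4.

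The receptor of interleukin-33 is carried by mast cells, group 2 innate lymphoid cells and regulatory T cells, and 8 of 14 markers of these cells were tested. For db/db discs all 8 were above 0 with a median of 1.85, against -0.04 over all genes tested, and 5 had an unadjusted p under 0.05, as 21.1% of all genes did, but limma and edgeR called none. DESeq2 called Cpa3 and Cma1, proteases of mast cell granules. Summed over the 14 markers the level was 20.4 to 33.4 CPM in db/db and 11.8 to 13.01 CPM in db/+, without overlap. Taken singly, 25.8% of all genes had no overlap in this comparison. Kit, the receptor for stem cell factor, was at 0.84 ± 0.28 (SE, adjusted p = 0.106 by limma) and Cpa3 at 2.73 ± 0.93 (SE, adjusted p = 0.115). The sum leaned on Kit, which had a median of 559 counts per library, against 0 to 78.5 for the other markers. In STZ-HFD discs 3 of 8 were above 0 with a median of -0.40, 1 had an unadjusted p under 0.05, and the 3 tools called none.

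Macrophages are a main source of interleukin-1. All 10 macrophage markers were below 0 in STZ-HFD discs, with a median of -0.92, and Cd68 (-1.63 ± 0.34, SE, adjusted p = 0.0169 by limma) and Lyz2 (-1.02 ± 0.23, SE, adjusted p = 0.0216) were called lower, while edgeR and DESeq2 called none. Their summed level was 108 to 181 CPM in STZ-HFD and 146 to 285 CPM in Con+Veh. In db/db discs 6 of 10 were above 0 with a median of 0.36 and limma called none, 2 had an unadjusted p under 0.05, edgeR called none and DESeq2 called Mrc1 and Lyz2. Of 11 neutrophil markers only 2 passed the filter. Their median was 1.91 in db/db and -2.67 in STZ-HFD discs, and the 3 tools called neither. Ly6g was at 0 in 13 of 14 libraries, while S100a8 had counts in all of them, at most 288. Summed over the 11 the level was 1.79 to 23.1 CPM in db/db and 0.974 to 5.74 CPM in db/+. It was 1.20 to 7.98 CPM in STZ-HFD and 1.21 to 15.8 CPM in Con+Veh. Skeletal muscle markers, whose source was not tested, were at 6050 to 16795 CPM in STZ-HFD and 6246 to 8270 CPM in Con+Veh. In this comparison all 7 were above 0, and limma, but neither edgeR nor DESeq2, called Acta1 and Myh1 higher. In the db model all 7 were below 0, and Myh1 was called lower by limma and DESeq2. There limma and DESeq2 also called higher the endothelial receptor Tek (1.31, adjusted p = 0.0115 by limma) and the adipocyte genes Adipoq (1.67, 0.0327) and Plin1 (1.73, 0.0239), and edgeR called none of them. Of the other marker lists, neither notochord and nucleus pulposus nor B lineage and erythroid marrow had a gene called by any of the 3 tools, and with an unadjusted p under 0.05 there was 1 gene, of the notochord list in db/db discs. The part of these cells in the levels of Il1b, Il18, Nlrp3 and Casp1 was not tested.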

How the data were processed

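RNA from pooled IVDs of 14 mice (groups of 3, 3, 4 and 4) had been amplified with SeqPlex and sequenced on a NovaSeq. The authors aligned reads with STAR to Ensembl release 101 and deposited gene counts in whole numbers from featureCounts, without normalization. They also deposited estimated counts per transcript from Salmon (109383 transcripts), which were summed per gene and rounded for 1 alternative. GRCm38 is the build named in the submitters' processing notes, gene positions and exon lengths came from a GENCODE annotation of it, and RefSeq promoters were matched for all 10 genes. The table's 287 repeated lines were used once. All columns were mapped to samples by the labels, which give every sample its group and replicate number.

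From the counts, TMM factors (edgeR 4.0.16), a filter (CPM above 1 in at least 3 libraries) and voomWithQualityWeights with 1 mean per group (limma 3.58.1, R 4.3.3) were used. Benjamini-Hochberg adjustment was over 16915 genes. The study's methods name normalization with edgeR, removal of low genes and voomWithQualityWeights, and the other settings were chosen here. Log2 CPM for plots and correlations used a prior count of 2. Alternatives covered DESeq2 1.42.0, the quasi-likelihood test of edgeR, other weights, scaling and filters, a replicate block, GC content and left-out libraries. The limma test was also run on simulated counts, with 1 dispersion per gene and no difference in quality between libraries. That run does not cover the unequal library weights of these data, and its outcome is not given here. Shares of transcripts were compared by exact permutation in libraries with at least 20 estimated counts.

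The genes and lists were chosen with earlier results of these data known. Of each pathway list, genes called in a model or in the difference were named, plus the 2 with the lowest p, and of marker lists the genes called. For Il33, the 5 genes most like it were named. The amplification of small RNA inputs and the pooling of 5 discs may add to the spread, and depth set a floor of 0.0509 to 0.187 CPM.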

Additional observations from a re-analysis of the deposited data

Results flagged for a closer look

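In STZ-HFD discs, Il1rn reached 4.97 CPM in replicate 1, with the next library at 0.327 CPM. Il1rl1 reached 4.81 CPM in the same library, with the next at 1.20 CPM, and Il1a 0.411 CPM, with the next at 0.0688 CPM. These 3 values lay in the library with counts on 1106 of 1138 olfactory receptor genes, and its transcript estimates summed to 0 for Il1rn and Il1a and to 4 for Il1rl1. For Il1a only 1 of 14 libraries had an estimate above 0, and the 32 counts of db/+ replicate 3 had an estimate of 0 as well. The 63 counts of Il1rl1 in Con+Veh replicate 1 had an estimate of 1. Il1rap reached 35.6 CPM in STZ-HFD replicate 4, with the next library at 8.76 CPM. Nlrp3 reached 1.17 CPM in Con+Veh replicate 3, with the next at 0.109 CPM. In each case the gap to the nearest library, divided by the range of the 4 libraries, passed Dixon's critical value. This held for 5 of 20 groups of 4 libraries. The critical value is for normally distributed values, while these are unlogged CPM, some from low counts. The genes also share the same libraries, so the count is not set against a rate by chance. The response of Il33 differed between the models by -3.54 on the log2 scale, with an adjusted p of 0.0176 by limma.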

How the results depend on the processing

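The count of genes called was recomputed under each alternative. In db/db discs it was 0 except for 1, Casp1, with the replicate block. In STZ-HFD discs and in the difference between the models it was 1, and it was 0 without quality weights, with the replicate block and without Con+Veh replicates 3 and 4, and 2 (Il33 and Il1rap) without both libraries whose names end in RIP. In the difference it was also 0 with edgeR. With 1 library left out it ran from 0 to 2 in both. Over all genes, those fits called 17 to 642 in STZ-HFD discs and 4 to 425 in the difference. With the replicate block, Il33 in STZ-HFD discs was -3.06 (adjusted p = 0.164 by limma). Whether the numbers pair the mice is not said by the labels. Same-numbered libraries deviated with a mean correlation of -0.0911 in the db cohort and -0.111 in the other. In the db cohort single pairs ran from -0.280 to 0.192, too few to settle it. The block gave 1484, 6 and 2 calls in the whole table.

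Signs turned for Il1rn in STZ-HFD discs with edgeR (1.33), DESeq2 (1.37) and transcript totals (0.0197), for Il1rn in the difference with edgeR (0.80) and DESeq2 (0.81), for Il1rn in db/db with the GC trend removed (-0.0766), and for Il1rap without Con+Veh replicates 3 and 4 in STZ-HFD discs (1.40) and in the difference (0.47), as for Nfkbiz (0.51). With 1 library left out they turned for Il1rl1 in the difference (range -2.29 to 0.0676) and in STZ-HFD discs (-0.0940 to 0.85) and for Casp1 in STZ-HFD discs (-0.75 to 0.38). The causes were not tested. The share of Il33-201 differed by 17.2 to 67.2 percentage points with 1 library left out. Il1rap, Il18 and Il1r1 have no transcript totals, since some of their transcripts were not analysed here. The low counts of Il1a, Il1b and Nlrp3 limit what depth can show.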

Other observations

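Il1rap was looked at further after its values were seen, because its counts split the control group. Over the 14 libraries the genes with the pattern most like it by Spearman correlation of log2 CPM were Gm47535 at 0.96, Dmrt3 and Gm43764 at 0.95, Ubxn2b at 0.94 and Drd2 at 0.93. Drd2 encodes a dopamine receptor. In STZ-HFD discs Ubxn2b fell by 3.09 on the log2 scale (adjusted p = 0.0319 by limma), and the other 4 were not called, with log2 fold changes of -2.34 to -0.66. They were picked for likeness to Il1rap in the same libraries, so their values are no separate evidence on it.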
